A study of Caenorhabditis elegans with 4 samples.

Results

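Potassium channels let potassium leave a cell and so set its resting potential and end its electrical signals. The *C. elegans* genome holds a large family, dominated by tandem-pore-domain (K2P) leak channels, beside voltage-gated (Kv, KCNQ, EAG and ERG), ion-activated and inward rectifier channels. In the worm they are best known for their work in muscles and neurons, where mutations change locomotion, feeding, defecation and egg laying.

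The 70 potassium channel genes were taken by name from the 46643 genes of the deposited count table. They were the protein-coding genes whose names start with twk-, kvs-, kqt-, irk-, slo- or kcnl-, together with shk-1, shl-1, egl-2, egl-23, egl-36, exp-2, sup-9, unc-58 and unc-103. They comprised 47 K2P, 9 Kv, 3 KCNQ, 2 EAG and ERG, 6 ion-activated and 3 inward rectifier genes. The ion-activated genes are the slo- and kcnl- genes. In the figures they carry the class name calcium- or sodium-activated, and which ion opens each worm channel was not examined here. Whole wild-type (N2) worms, raised at 25 °C from synchronised L1 larvae on plates of OP50 bacteria, gave the RNA on adult day 1. There were 2 libraries from animals given 2.5 mM ketamine, an anesthetic that blocks NMDA receptors, and 2 from animals given M9 buffer as the vehicle. The study reports that worms on this dose developed more slowly and less evenly than controls. Whether the 2 groups matched in stage when RNA was taken was not tested. The comparison asks which transcripts differed with ketamine. Nothing in the labels says whether the libraries of a group came from separate cultures, so p-values measure only the spread between these libraries, which may be technical.

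The libraries held 34533449 and 29192110 counts in ketamine 1 and 2, against 43419202 and 36241505 in control 1 and 2. Of all genes, 15793 reached 10 counts in 2 or more libraries and were tested. Over these, log2 CPM (CPM is the count scaled to a common library size, here with edgeR's TMM factors) correlated at 0.988 between the ketamine libraries and at 0.962 between the controls. Control 1 stood apart, at 0.951 and 0.949 with ketamine 1 and 2, whereas control 2 correlated at 0.978 and 0.980 with them. Marker lists of 7 tissues were all detected, with no matched gene at 0 in every library. Epidermal markers summed to 990 and 805 CPM under ketamine, against 334 CPM in control 1 and 1630 CPM in control 2.

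The potassium channel genes were mostly lower under ketamine, by a small amount, and no single gene passed the test after adjustment. Of the 70 genes 64 had enough counts to be tested, and 47 of these had a log2 fold change below 0, against 50.5% of all genes tested. Their median log2 fold change was -0.32, against -0.0051 for all genes. Values ran from -1.79 for twk-6 to 0.61 for twk-36. The quartiles were -0.56 and 0.038, and those of all genes -0.29 and 0.28. All 70 genes together summed to 244 and 238 CPM in ketamine 1 and 2, against 309.9 and 301 CPM in control 1 and 2. The groups did not overlap in this sum, and the libraries within each were close. In whole animals, fewer cells of a type, less RNA per cell and a difference in stage cannot be told apart.

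**Figure D1:**
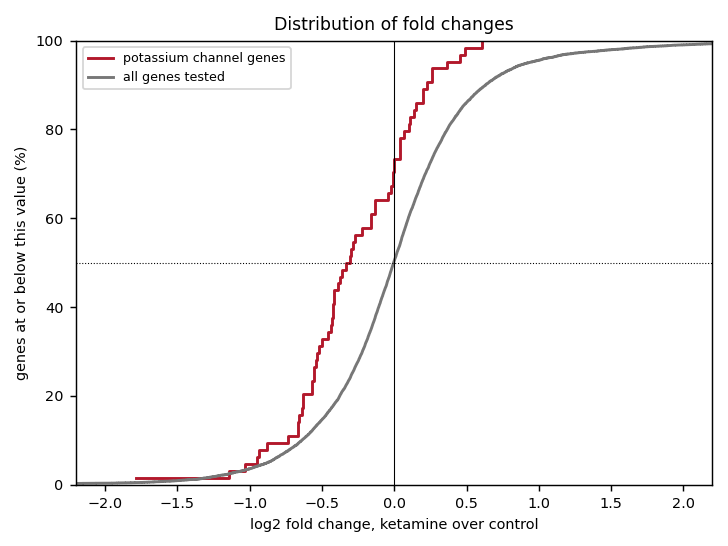
Cumulative share of genes (vertical axis, percent) at or below each log2 fold change of ketamine over control (horizontal axis), for the 64 potassium channel genes tested (red) and all 15793 genes tested (grey). The red line lies left of the grey over most of the range, with medians of -0.32 and -0.0051.

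In edgeR (quasi-likelihood F-test, Benjamini-Hochberg over all 15793 genes), a gene was called when its adjusted p-value was below 0.05 and it differed by 2-fold or more. By this rule 0 of the 64 genes were higher and 0 lower, where 0.095% of all genes were higher and 0.0% lower. The lowest adjusted p-value of a potassium channel gene in edgeR was 0.748. With the p-value left unadjusted, twk-6 and twk-43 met the rule as lower and 0 genes as higher, against 1.63% lower and 2.05% higher among all genes. With no demand on the fold, 4 genes were lower (twk-6, twk-18, twk-43 and unc-58) and 0 higher, against 3.32% lower and 2.77% higher among all genes. DESeq2 called 0 of the 70 genes, with 0.107% of all genes lower and 0.584% higher, and put 4 genes below an unadjusted 0.05 (kcnl-2 in place of twk-6), all lower, against 2.16% of all genes.

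These counts depended on single libraries. The number of channel genes lower by 2-fold before adjustment changed with the library left out. The share of all genes at that threshold was not computed for those fits. Without control 2, edgeR called kcnl-2 and shk-1 lower after adjustment, in a fit of 3 libraries that called 4.29% of all genes lower and 10.9% higher. In that fit 9 channel genes were lower and 2 higher at an adjusted p-value below 0.05 whatever the fold, against 17.7% and 23.2% of all genes. With 2 libraries against 2, the smallest two-sided p-value of an exact permutation test is 0.333.

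The ketamine values lay entirely below the control values in 26 of the 64 genes and entirely above them in 6, where the shares of all genes tested were 20.6% below and 23.1% above. The other 32 genes overlapped between the groups. Those below were twk-6, twk-8, twk-10, twk-12, twk-17, twk-18, twk-21, twk-22, twk-26, twk-39, twk-42, twk-43, twk-46, twk-47, twk-49 and unc-58 among the K2P genes, shk-1, shl-1, exp-2, kvs-2 and kvs-5 among the Kv genes, and kqt-1, slo-2, kcnl-2, kcnl-3 and irk-3. The 6 above were all K2P genes, namely twk-7, twk-30, twk-33, twk-36, twk-40 and twk-45, with log2 fold changes from 0.14 for twk-30 to 0.61 for twk-36.

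The lower level was seen in each pairing of a ketamine with a control library. These pairings reuse the same libraries, as do the fits with a library left out, so they are not independent repeats. The median difference in log2 CPM over the 64 genes was -0.29 for ketamine 1 minus control 1, -0.31 for ketamine 1 minus control 2, -0.29 for ketamine 2 minus control 1 and -0.33 for ketamine 2 minus control 2. Within groups it was 0.017 for ketamine 1 minus ketamine 2 and -0.056 for control 1 minus control 2. For all genes with a count in every library, these 6 medians lay between -0.0048 and 0.021. The median log2 fold change from edgeR was -0.33 without ketamine 1, -0.28 without ketamine 2, -0.33 without control 1 and -0.29 without control 2.

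**Figure D2:**
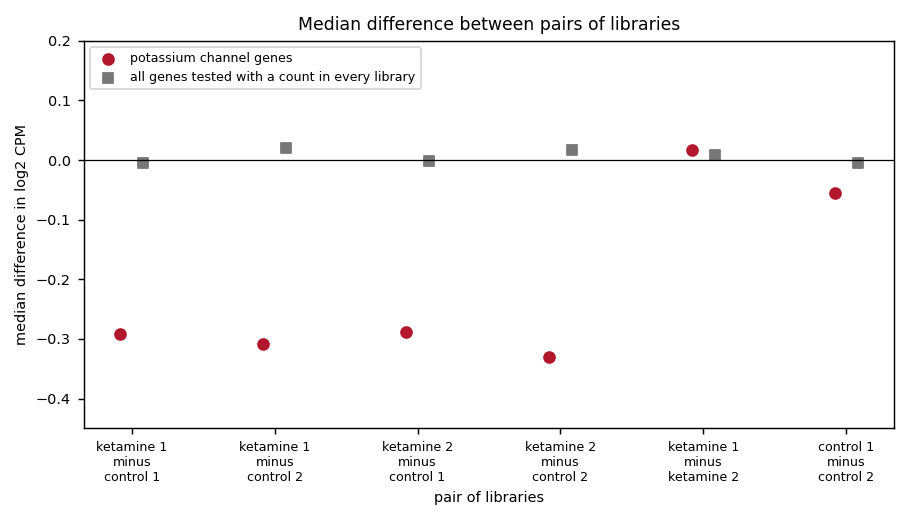
Median difference in log2 CPM (vertical axis) for each of the 6 pairs of libraries (horizontal axis), over the 64 tested potassium channel genes (red circles) and over all tested genes with a count in every library (grey squares). The 4 pairs of a ketamine and a control library lie between -0.33 and -0.29 for the channel genes, and the pairs within a group at 0.017 and -0.056.

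Markers of tissues where these channels work, and of the germ line, were measured beside them. All 12 body wall muscle markers had a log2 fold change below 0, with a median of -0.44, and they summed to 4629 and 4541 CPM under ketamine, against 4340 CPM in control 1 and 7492 CPM in control 2. Of 6 pharyngeal markers 4 were below 0, with a median of -0.55 and a sum of 113 and 120.0 CPM under ketamine, against 166 and 204 CPM in controls. Of 15 neuronal markers 9 were below 0, with a median of -0.068 and a sum of 505 and 507 CPM under ketamine, against 525 and 522 CPM in controls. Muscle markers overlapped between the groups in their sum, and the sums of pharyngeal and neuronal markers were lower in both ketamine libraries than in either control. The sums of the sperm list and of the oocyte and germ line list also did not overlap between the groups, although some single markers did. Of the 10 sperm markers tested 8 were below 0, with a median of -0.44, and the sperm list summed to 102 and 80.9 CPM under ketamine, against 139 and 125 CPM in controls. Of 9 markers of oocytes and germ line 8 were above 0, with a median of 0.22 and a sum of 8901 and 8652 CPM under ketamine, against 7328 and 7770 CPM in controls. The part of these markers in the lower channel levels was not tested.

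The channel genes were expressed at low levels. Mean FPKM (fragments scaled to gene length and library size, as deposited) over the 4 libraries ran from 0.033 for twk-44 to 13.6 for twk-5, with a median of 1.21, against 8.06 for the protein-coding genes tested. It was under 1 in 32 genes, from 1 to 3 in 26 and at least 3 in 12. No member had a count of 0 in any library. The 6 genes with too few counts to be tested were all K2P genes, namely twk-3, twk-4, twk-20, twk-23, twk-37 and twk-44, with 1 to 13 counts in each library. By mean FPKM the 10 highest were twk-5, twk-18, twk-1, kvs-5, twk-34, twk-22, kqt-2, slo-2, twk-46 and twk-8, and all of them but twk-34 had a log2 fold change below 0. The 32 tested genes with the higher FPKM had a median log2 fold change of -0.43, with 18 (56.2%) entirely below the controls, and the 32 with the lower FPKM a median of -0.13, with 8 (25.0%) entirely below, where 20.6% of all genes tested were entirely below. Across the 64 genes, which share the same 4 libraries, log2 mean FPKM and log2 fold change correlated at -0.067.

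**Figure D3:**
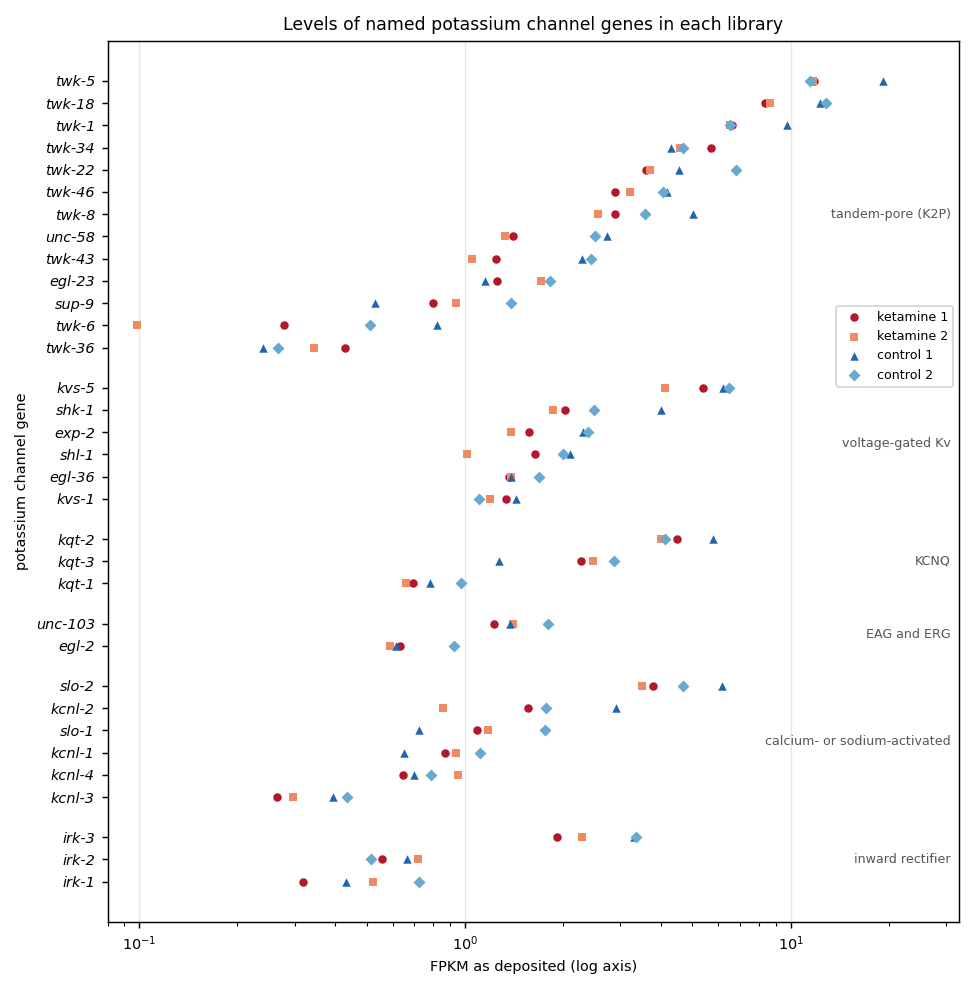
Deposited FPKM (horizontal log axis) of 33 named potassium channel genes in each library, grouped by subfamily and ordered by mean level, with red circles and orange squares for ketamine 1 and 2 and dark triangles and light diamonds for control 1 and 2. For twk-18, unc-58, twk-43, exp-2 and irk-3 both ketamine points lie left of both control points, and for twk-36 both lie right.

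K2P genes encode background leak channels, and 28 of the 41 tested were below 0, with a median log2 fold change of -0.31. twk-18 (C24A3.6, chromosome X, 8988135 to 8991961, WBcel235), whose channel works in body wall muscle, was the second most abundant channel gene by FPKM. It had 16.3 and 16.8 CPM under ketamine, against 23.98 and 25.1 CPM in controls. The groups were well apart and each was narrow, and the log2 fold change was -0.57 (standard error 0.19, adjusted p = 0.748, edgeR). It lay between -0.63 and -0.53 with any library left out.

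unc-58 (T06H11.1, chromosome X, 10104612 to 10109868), known for gain-of-function alleles that impair movement, had 3.76 and 3.57 CPM under ketamine, against 7.29 and 6.72 CPM in controls. The ketamine libraries were close to each other and well below both controls. Its log2 fold change was -0.93 (standard error 0.25, adjusted p = 0.748, edgeR), and between -0.99 and -0.90 with any library left out.

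twk-43 (F32H5.7, chromosome V, 13346278 to 13356101) encodes another K2P channel. Its level was 2.50 and 2.11 CPM under ketamine, against 4.58 and 4.89 CPM in controls. Both groups were narrow and did not overlap, and the log2 fold change was -1.04 (standard error 0.28, adjusted p = 0.748, edgeR). Genes overlapping twk-43 on the opposite strand, F32H5.1 among them, held 5518 counts over the 4 libraries, against its own 528, and whether counting used strand is not given in the sources used here.

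twk-6 (F17C8.5, chromosome III, 4742968 to 4744649) had the lowest fold change, on few reads, with 10 and 3 counts under ketamine, against 40 and 19 counts in controls. Both ketamine libraries were below both controls, and the log2 fold change was -1.79 (standard error 0.65, adjusted p = 0.748, edgeR). twk-21 was the other gene at least 2-fold lower, with 10 and 2 counts under ketamine, against 15 and 18 counts in controls and a log2 fold change of -1.15 (standard error 0.76).

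In twk-5 and twk-1, among the most abundant channel genes, only control 1 stood apart. twk-5 (B0334.2) had 11.8 and 11.7 FPKM under ketamine, against 19.3 and 11.5 FPKM in controls. The log2 fold change was -0.39 (standard error 0.31), and 0.00094 without control 1. twk-1 (F21C3.1) had 6.60 and 6.52 FPKM under ketamine, against 9.72 and 6.50 FPKM in controls. Its log2 fold change of -0.31 (standard error 0.28) was -0.015 without control 1. In both genes control 2 was at the level of the ketamine libraries.

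twk-22, twk-8 and twk-46, also K2P genes, did not overlap between the groups. twk-22 (T01B4.2) had 9.11 and 9.39 CPM under ketamine, against 11.5 and 17.3 CPM in controls, with control 2 the high library. The log2 fold change was -0.64 (standard error 0.28), and -0.31 without control 2. For twk-8 (ZC410.4) the levels were 7.40 and 6.58 CPM under ketamine, against 12.8 and 9.21 CPM in controls, a log2 fold change of -0.66 (standard error 0.27). twk-46 (Y39B6A.19) was narrower, with 3.64 and 4.05 CPM under ketamine, against 5.25 and 5.12 CPM in controls and a log2 fold change of -0.43 (standard error 0.25).

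The K2P genes sup-9 and egl-23 overlapped between the groups. sup-9, whose channel works in muscle with the UNC-93 and SUP-10 proteins, had 29 and 29 counts under ketamine, against 26 and 52 counts in controls. Its log2 fold change of -0.13 (standard error 0.57) was 0.72 without control 2. egl-23, named for its egg-laying mutant, had 2.97 and 4.05 CPM under ketamine, against 2.71 and 4.32 CPM in controls, a log2 fold change of -0.00060 (standard error 0.37). In both genes the ketamine values fell between the controls.

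Some K2P genes had values above 0. twk-34 (K06B4.12) was the most abundant of these by FPKM, with 11.7 and 9.42 CPM under ketamine, against 8.83 and 9.63 CPM in controls and a log2 fold change of 0.20 (standard error 0.24). Its groups overlapped. twk-36 had the highest fold change of all, with 0.734 and 0.589 CPM under ketamine, against 0.412 and 0.457 CPM in controls, on 25 and 17 counts under ketamine, against 19 and 16 counts in controls. Its groups did not overlap, and the log2 fold change was 0.61 (standard error 0.43).

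**Figure D4:**
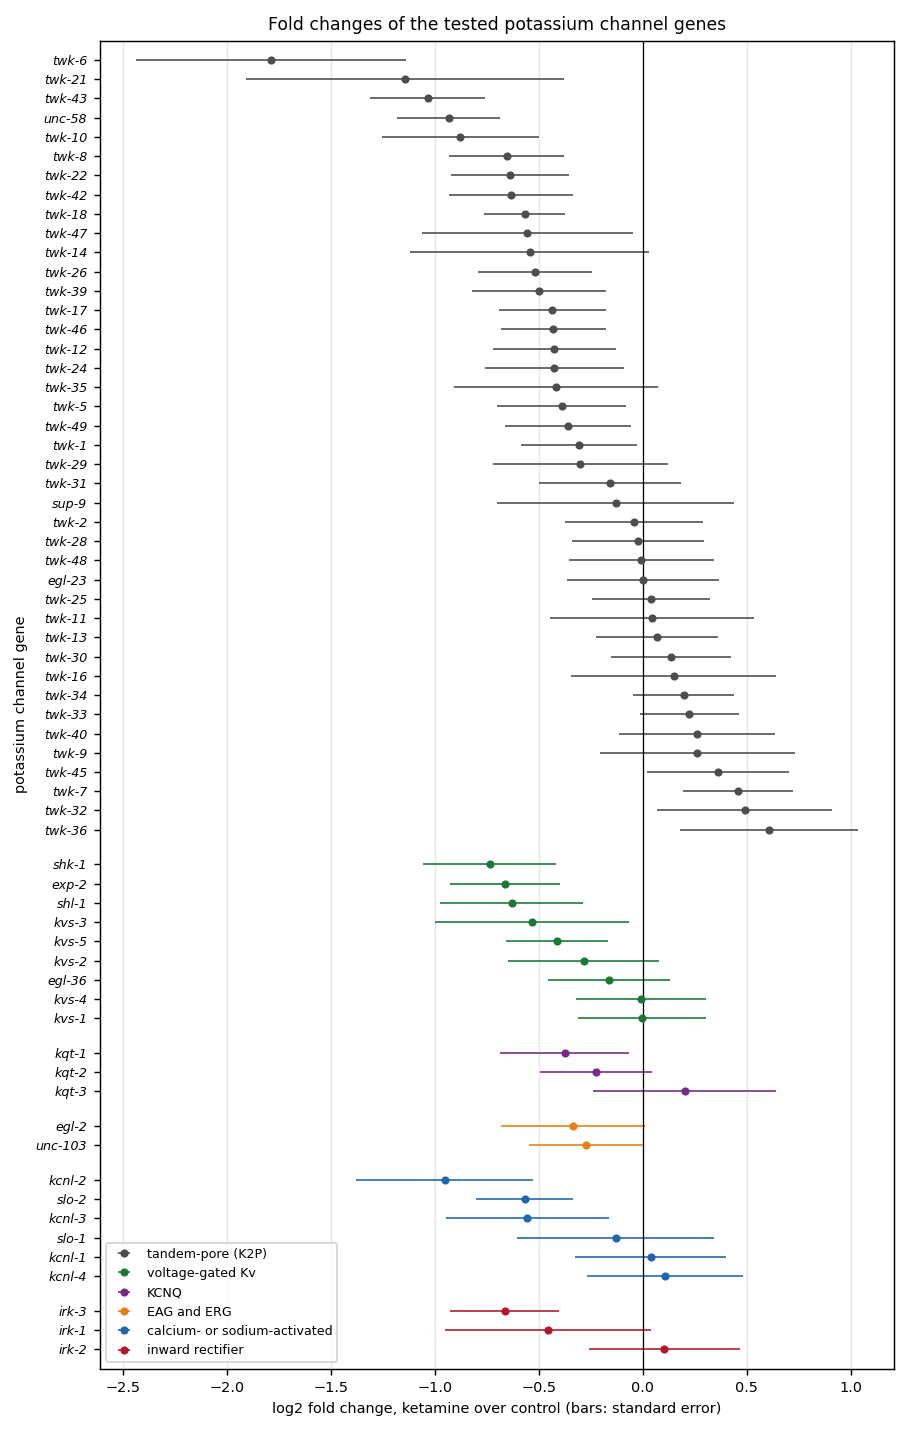
Log2 fold change of ketamine over control (horizontal axis, points) with its standard error (bars) for the 64 potassium channel genes tested, grouped and coloured by subfamily. The K2P genes run from -1.79 for twk-6 to 0.61 for twk-36, and the 9 Kv genes from -0.74 for shk-1 to -0.0040 for kvs-1.

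Kv channels open when a cell depolarises and end its action potentials. All 9 Kv genes had a log2 fold change below 0, although that of kvs-1 was above 0 with the replicate block, in limma and with some single libraries left out, and the median was -0.41. The ketamine values were entirely below the controls in 5 of the 9, against 20.6% of all genes tested. Without ketamine 2 the median was -0.23, and without ketamine 1 it was -0.62.

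shk-1 (ZK1321.2, chromosome II, 9758234 to 9768265), the Shaker channel of muscle and neurons, had 4.88 and 4.47 CPM under ketamine, against 9.57 and 6.004 CPM in controls. Control 1 was the high library, and the log2 fold change was -0.74 (standard error 0.32, adjusted p = 0.748, edgeR), or -0.39 without it. Without control 2 the log2 fold change was -1.03.

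exp-2 (F12F3.1, chromosome V, 6139836 to 6143548), whose channel ends the action potential of pharyngeal muscle, had 3.11 and 2.74 CPM under ketamine, against 4.54 and 4.75 CPM in controls. Both groups were narrow and apart, and the log2 fold change came to -0.66 (standard error 0.26, adjusted p = 0.748, edgeR). shl-1 (Y73B6BL.19), the Shal channel that carries a transient current in muscle and neurons, had 3.03 and 1.87 CPM under ketamine, against 3.89 and 3.72 CPM in controls. Here the ketamine libraries parted, and the log2 fold change of -0.63 (standard error 0.34) was -0.33 without ketamine 2 and -1.02 without ketamine 1.

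kvs-5 (Y55F3C.3) was the most abundant Kv gene, with 5.40 and 4.11 FPKM under ketamine, against 6.22 and 6.46 FPKM in controls. Both ketamine libraries were below both controls, with a log2 fold change of -0.41 (standard error 0.24). egl-36, the Shaw channel named for its egg-laying mutant, had 2.53 and 2.56 CPM under ketamine, against 2.56 and 3.14 CPM in controls, a log2 fold change of -0.16 (standard error 0.29). kvs-1, whose channel takes the MPS-1 accessory subunit, had 2.56 and 2.29 CPM under ketamine, against 2.73 and 2.12 CPM in controls, a log2 fold change of -0.0040 (standard error 0.31). The groups overlapped in egl-36 and kvs-1. The remaining Kv genes kvs-2, kvs-3 and kvs-4 had log2 fold changes of -0.29, -0.53 and -0.0083.

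KCNQ genes encode slowly opening voltage-gated channels, and kqt-2 and kqt-3 act in the worm's intestine. kqt-1 had 1.88 and 1.80 CPM under ketamine, against 2.13 and 2.66 CPM in controls, without overlap, and a log2 fold change of -0.38 (standard error 0.31). kqt-2 (M60.5) had 10.4 and 9.35 CPM under ketamine, against 13.5 and 9.61 CPM in controls. Its log2 fold change of -0.23 (standard error 0.27) was 0.014 without control 1, the high library. The gene endu-2 on the opposite strand held 7105 counts, against 1581 for kqt-2.

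kqt-3 (Y54G9A.3) had 5.40 and 5.85 CPM under ketamine, against 3.02 and 6.80 CPM in controls. The ketamine values lay between those of the controls, and the log2 fold change of 0.20 (standard error 0.44) was -0.30 without control 1 and 0.90 without control 2. Intestinal markers, of which 6 of the 8 tested were above 0, summed to 2584 and 2672 CPM under ketamine, against 1464 CPM in control 1 and 2679 CPM in control 2. Between the controls kqt-2 went the other way, at 13.5 CPM in control 1 and 9.61 CPM in control 2. The part of the intestinal markers in the level of either gene was not tested.

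The EAG channel gene egl-2 is named for its egg-laying mutant, and the ERG channel gene unc-103 restrains egg-laying and male mating muscles. egl-2 had 2.11 and 1.97 CPM under ketamine, against 2.06 and 3.12 CPM in controls, a log2 fold change of -0.34 (standard error 0.35). unc-103 (C30D11.1) had 4.91 and 5.61 CPM under ketamine, against 5.49 and 7.23 CPM in controls, a log2 fold change of -0.27 (standard error 0.28). In both genes only control 2 stood above both ketamine libraries, and without it the log2 fold changes were -0.0070 for egl-2 and -0.059 for unc-103.

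Among the channels that open on intracellular ions, slo-2 was lower in both ketamine libraries than in either control and slo-1 overlapped. slo-2 (F08B12.3, chromosome X, 11394605 to 11400686), a large-conductance channel of motor neurons and muscle, had 16.1 and 14.9 CPM under ketamine, against 26.02 and 19.9 CPM in controls. Its log2 fold change was -0.57 (standard error 0.23, adjusted p = 0.748, edgeR), and -0.39 without control 1. slo-1 (Y51A2D.19), the calcium-activated BK channel that limits transmitter release, had 4.35 and 4.71 CPM under ketamine, against 2.89 and 7.06 CPM in controls. The ketamine values lay between the controls, and the log2 fold change of -0.13 (standard error 0.48) was 0.65 without control 2 and -0.67 without control 1.

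kcnl-2 (F08A10.1, chromosome I, 8177260 to 8208740), a small-conductance calcium-activated channel with a role in egg laying, had the lowest fold change of the ion-activated channels. It had 5.29 and 2.91 CPM under ketamine, against 9.85 and 6.03 CPM in controls. Both groups were wide but did not overlap, and the log2 fold change was -0.95 (standard error 0.43, adjusted p = 0.748, edgeR). It was -0.59 without ketamine 2, -1.45 without ketamine 1 and -1.25 without control 2. The related genes had log2 fold changes of -0.56 for kcnl-3, whose groups did not overlap, and 0.037 for kcnl-1 and 0.11 for kcnl-4, whose groups did.

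Inward rectifiers hold a cell near its resting potential, and all 3 genes lie on chromosome X. irk-3 (K04G11.5, chromosome X, 14353309 to 14359065) had 3.11 and 3.74 CPM under ketamine, against 5.38 and 5.49 CPM in controls. The controls were nearly equal and both above ketamine, and the log2 fold change came to -0.67 (standard error 0.26, adjusted p = 0.748, edgeR). irk-1, which works in the egg-laying motor neurons, had 18 and 25 counts under ketamine, against 33 and 42 counts in controls, a log2 fold change of -0.46 (standard error 0.50). irk-2 had 42 and 46 counts under ketamine, against 68 and 40 counts in controls, a log2 fold change of 0.10 (standard error 0.36) that was -0.0015 with upper-quartile factors. In irk-1 and irk-2 the groups overlapped in CPM.

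The members were spread over all 6 chromosomes. Of the 70 genes 20 lie on chromosome X and 21 on chromosome V, with 6 on I, 8 on II, 9 on III and 6 on IV. X held 17 of the 64 tested genes, or 26.6%, against 14.1% of all genes tested. The 17 X-linked genes had a median log2 fold change of -0.46, with 15 below 0, 10 entirely below the controls and 0 entirely above. The 47 on autosomes had a median of -0.29, with 32 below 0, 16 entirely below the controls and 6 entirely above. Over all genes tested the medians were -0.00068 on X and -0.0053 on autosomes, with 22.6% of X-linked and 20.2% of autosomal genes entirely below. Entirely above were 18.4% of X-linked and 23.9% of autosomal genes. The difference between X-linked and autosomal members was not tested.

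Another gene overlaps 41 of the 70 genes, and in 8 the opposite-strand genes held more counts than the channel gene. These 8 were kqt-2, kvs-4, twk-9, twk-13, twk-30, twk-42, twk-43 and twk-49, and had a median log2 fold change of -0.12. Genes overlapping some of the others, such as shl-1, slo-1, twk-17 and irk-3, held 0 counts. Only protein-coding genes, genes marked ncRNA and pseudogenes were counted as overlaps. The 25 tested genes with no overlap had a median of -0.43, with 10 entirely below the controls and 4 entirely above, against 20.6% and 23.1% of all genes tested. Whether reads were shared with opposite-strand genes, or between similar twk genes, was not tested.

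Channels also depend on accessory proteins, and 13 genes for such partners were listed by name. All 13 were tested, and their median log2 fold change was -0.19, with 8 below 0, 6 entirely below the controls and 0 entirely above, where 20.6% of all genes tested were below and 23.1% above. edgeR called 0 of them after adjustment, and before it mps-2 and sup-10 were lower by 2-fold or more and 0 were higher, against 1.63% lower and 2.05% higher among all genes. DESeq2 also called 0 of them, with 0.107% of all genes lower and 0.584% higher. It put the same 2 genes below an unadjusted 0.05, both lower, against 2.16% lower and 2.11% higher among all genes.

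mps-2 (K01A2.8, chromosome II, 309482 to 312210) encodes a KCNE-like subunit of Kv channels. It had 6.78 and 7.41 CPM under ketamine, against 16.6 and 13.6 CPM in controls. The ketamine libraries were close together and far below both controls, and the log2 fold change came to -1.09 (standard error 0.24, adjusted p = 0.705, edgeR). It lay between -1.22 and -0.97 with any library left out.

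sup-10 (R09G11.1, chromosome X, 17528410 to 17531981), a regulatory subunit of the SUP-9 channel, had 1.20 and 1.04 CPM under ketamine, against 2.28 and 2.29 CPM in controls. Each group was narrow, and the log2 fold change was -1.02 (standard error 0.32, adjusted p = 0.748, edgeR). unc-93, the other subunit of that channel, had 3.29 and 3.33 CPM under ketamine, against 4.86 and 3.80 CPM in controls, without overlap, and a log2 fold change of -0.39 (standard error 0.28). Both subunit genes were thus below the controls in each ketamine library, and sup-9 itself was not.

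Partners that place the SLO-1 channel in the membrane included the dystrophin complex genes dys-1, dyb-1 and stn-1. dys-1, dyb-1 and the alpha-catulin gene ctn-1 had log2 fold changes of 0.039, 0.029 and 0.061, and their groups overlapped. stn-1 and islo-1 were at -0.19 and -0.28, with the ketamine values below the controls. erg-28, which promotes SLO-1 trafficking, had 9.75 and 9.87 CPM under ketamine, against 18.02 and 8.12 CPM in controls, so that its controls lay on both sides of ketamine, and the log2 fold change was -0.41 (standard error 0.42). The SLO-1 subunit gene bkip-1 and the KCNE-like genes mps-1, mps-3 and mps-4 were sparse, with log2 fold changes of -0.16, -0.27, 0.16 and 0.58. mps-4, the highest, had 3 and 13 counts under ketamine, against 14 and 1 counts in controls.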

How the data were processed

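The authors aligned paired-end reads of stranded mRNA libraries to WBcel235 and, per the submitters' processing notes, used HISAT2 2.0.5, StringTie 1.3.3b and featureCounts 1.5.0-p3. They deposited raw counts per gene without normalization. The deposited FPKM values are those counts over gene length and a constant of each library, within 1% for every gene of at least 100 counts. Ketamine was compared with control on the counts in edgeR 4.0.16 (quasi-likelihood F-test, TMM factors, no replicate block), for genes reaching 10 counts in 2 or more libraries. A standard error is the fold change on the log2 scale over the root of F. Scripts ran in Python 3.11.15 and R 4.3.3, with limma 3.58.1 and DESeq2 1.42.0 for alternatives. Control libraries are the wild-type columns, paired with labels by their number. WormBase identifiers were matched for 46180 of 46643 genes through the WBcel235 annotation, and coordinates are those of the deposited table.

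Genes were named where they were members with an unadjusted p-value below 0.05, the 10 highest by FPKM, the ends of each subfamily, members with textbook roles, or accessory genes at that threshold or at the ends of their range. Others, such as twk-21, kvs-2 to kvs-4, the genes listed by overlap and the remaining accessory genes, were named after their values were seen. Members and lists were chosen with earlier results of these data known. On counts simulated for this comparison (15527 genes, 200 changed), the changed genes were taken from those with a mean count of at least 50. There edgeR recovered 63.1% of 4-fold and 7.87% of 2-fold changes, with 8 false calls. DESeq2 recovered 87.4% and 27.0%, with 45 false calls. Channel genes under that mean count, such as twk-6, twk-21 and irk-1, are not covered by these rates. No separate rate was computed for the other channel genes. The simulated libraries were drawn independently, so a library that stood apart as control 1 did was not simulated. Alternatives were DESeq2, other scaling factors and count filters, the replicate block, limma on FPKM with a pseudocount of 1 or 0.1, tests of protein-coding genes only, removal of the 20 most abundant genes, and removal of each library.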

Additional observations from a re-analysis of the deposited data

How the results depend on the processing

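The median log2 fold change of the channel genes was below 0 under all 15 alternatives of the fit. It was -0.42 with upper-quartile factors, which moved the median of all genes to -0.10, -0.36 with total counts alone, -0.35 with no count filter, -0.30 with the replicate block, -0.14 in limma on log2(FPKM + 1) and -0.27 on log2(FPKM + 0.1). With a library left out it lay between -0.33 and -0.28. The number of channel genes called after adjustment was 0 in every alternative except the fit without control 2, so between 0 and 2 with a library left out. The 3-library fits assume that the lone library varies like the other group. The number lower by 2-fold or more before adjustment was 3 with upper-quartile factors and 1 in DESeq2. It was 1 with at least 10 counts in all 4 libraries, 0 in limma on log2(FPKM + 1) and 1 on log2(FPKM + 0.1). The share of all genes at that threshold was computed only for the edgeR fit described above, at 1.63%. The cause of the differences between settings was not tested. The number of genes entirely below the controls was between 27 and 31 with other scaling and in FPKM, and the number above was 5 or 6. These alternatives were added after the data were seen. The shares of all genes were computed with TMM factors only, at 20.6% below and 23.1% above. Under the other scalings these numbers therefore have no background beside them. Deviations of same-numbered libraries from their group means correlated at 0.081, and the labels name no shared culture, so the numbers were not treated as pairs, and the replicate block called 0 channel genes.

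Of 538 single-gene values under alternatives 510 kept their direction and 28 turned, in 11 of 36 genes. egl-23 was at 0.0019 with DESeq2 size factors, 0.00024 in DESeq2, 0.00061 with protein-coding genes alone, 0.018 with the replicate block, and 0.0065 and 0.017 in limma at the pseudocounts 1 and 0.1. kvs-1 was at 0.0050 with the replicate block, and 0.0018 and 0.0063 in limma. With upper-quartile factors irk-2 was at -0.0015 and kcnl-1 at -0.050. With a library left out the ranges were -0.33 to 0.37 for egl-23, -0.17 to 0.17 for kvs-1, -0.089 to 0.28 for irk-2, -0.33 to 0.48 for kcnl-1, -0.20 to 0.36 for kcnl-4, -0.44 to 0.014 for kqt-2, -0.30 to 0.90 for kqt-3, -0.71 to 0.00094 for twk-5, -0.67 to 0.65 for slo-1, -0.71 to 0.72 for sup-9 and -0.95 to 3.004 for mps-4. Low counts limit genes such as twk-6, irk-1 and mps-4, and 2 libraries per group limit every value.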
